A study of Mus musculus with 18 samples.

Results

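The day change described here is that of O9-1 cells kept in osteoblast differentiation medium without FGF2, from day 2.5 (d2.5) to day 5 (d5). It was measured by bulk RNA-seq in 6 of the 18 RNA-seq libraries of the study, 3 replicates at each day. These are all the libraries that the labels call siCtrl no FGF2, so the choice used no measured value. O9-1 is an immortal multipotent line of neural crest (NC) cells taken from the heads of mouse embryos, which can form osteoblasts, chondrocytes, smooth muscle cells and glia. The genotype of all 6 libraries is wildtype, and all cells had received a scramble siRNA (siCtrl) that targets no gene and the vehicle in place of FGF2 (Ctrl+vehicle). The day in the medium, with its batch, is what differs between the groups. The study's other 12 libraries hold cells given FGF2, with the same scramble siRNA (Ctrl+FGF2) or with siRNA to Yap1 and Wwtr1. The Ctrl+FGF2 libraries, 3 at d2.5 and 3 at d5, are used below as a comparison, and those with siRNA to Yap1 and Wwtr1 are not. The labels give each day its own batch, so that time in the medium and batch cannot be told apart in any value of the day change. They do not say whether replicates are separate cultures, so p-values measure the spread between libraries, which may be technical.

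Osteoblasts arise from mesenchymal precursors that switch on the transcription factor Runx2 and then Sp7 (osterix), lay down a matrix rich in type I collagen, and later mineralize it. NC cells that take this route are known to leave the cell cycle and to lose their progenitor genes as they mature. FGF signaling through ERK is known to keep such precursors cycling and to hold back their maturation.

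Gene counts were between 12243859 and 14698525 per library at d2.5 and between 11026929 and 13527647 at d5. Levels are given as normalised CPM, gene counts scaled to the same library total with TMM factors over the 6 libraries, and log2 fold changes (d5 over d2.5) come with their standard error (SE) from edgeR's quasi-likelihood test. Of 13369 genes tested, 4392 were higher at d5 and 4423 lower at a Benjamini-Hochberg adjusted p under 0.05, which is 65.9% of the genes in either direction, 32.9% higher and 33.1% lower. The replicates of the days did not overlap for 70.4% of genes. With so large a background a call by itself sets a gene little apart, and 4741 of the calls (53.8%) were changes of less than 1.5-fold. Calls of at least 2-fold were made for 8.94% of genes upward (1195) and 6.44% downward (861). The median log2 fold change of all tested genes was −0.02. The 100 most abundant genes took 28.3% to 28.9% of the counts at d5 and 21.2% to 21.7% at d2.5, and without the TMM factors every log2 fold change is lower by about 0.23 and the calls are 2737 higher and 6855 lower. Counts of higher and lower genes below stand on the TMM scale. In bulk RNA, fewer cells of a kind and less RNA of a gene per cell cannot be told apart.

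The identity of the cells was read from marker lists. Of 28 NC genes, 20 were abundant enough to test. The genes that define migrating NC cells in the embryo, Sox10, Foxd3, Pax7 and Zic1, had no count in any of the 6 libraries, which allows at most 0.0682 CPM over the d2.5 and 0.0881 CPM over the d5 libraries. Genes shared by NC and mesenchyme were present. Twist1, a bHLH factor of cranial mesenchyme, stood at 53.6, 56.2 and 55.5 CPM at d2.5 and 89, 88.9 and 94.2 CPM at d5, and Tfap2a, an AP-2 factor of NC and ectoderm, at 42.1, 36.9 and 36.7 CPM at d2.5 and 49.6, 40.6 and 40.9 CPM at d5. The libraries of the days did not overlap for Twist1 and did so for Tfap2a (adjusted p = 0.0788, and 0.0324 with a replicate block). Markers of other lineages that a culture might hold were in part present at d2.5. Stmn2 and Tubb3 of neurons were at 43.5 and 20.8 CPM, Krt14 and Krt19 of epithelium at 4.29 and 4.58 CPM, and Pecam1 and Egfl7 of endothelium at 3.42 and 3.23 CPM in their means, and all of them were lower at d5. Other defining markers had no count in any library, namely Krt8, Krt18 and Grhl2 for epithelium, Cdh5, Tie1 and Emcn for endothelium, Lyz2, Tyrobp and Aif1 for macrophages, Rbfox3 for neurons and Myod1, Myog and Ckm for skeletal muscle.

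Osteoblast transcription factors moved in both directions. Of 23 tested, 11 were higher and 10 lower at d5, with a median log2 fold change of −0.01 beside −0.02 over all genes. Runx2, the master regulator of the osteoblast fate, stood at 161, 160.4 and 158 CPM at d2.5 and 123, 145 and 131 CPM at d5. Every d5 library was below every d2.5 library, though the step was small (log2 fold change −0.26, SE 0.05, adjusted p = 6.1e-04). On GRCm38, Runx2 spans bases 44495987 to 44814797 of chromosome 17 (minus strand). Sp7, which acts after Runx2 and is needed for osteoblasts to form, stood at 137, 216 and 180.2 CPM at d2.5 and 32.5, 38 and 33.7 CPM at d5. All d5 libraries were below the lowest d2.5 library, at about 0.195 times the d2.5 mean (log2 fold change −2.35, SE 0.13, adjusted p = 1.2e-09). Sp7 spans bases 102356606 to 102367182 of chromosome 15 (minus strand). Sox11, a progenitor factor, and Twist2, a relative of Twist1, were lower as well, with log2 fold changes of −2.41 and −1.58.

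Among the factors that were higher at d5, Zfp521, a zinc finger protein known to bind Runx2, rose from 15.6 ± 2.12 to 43.8 ± 1.18 CPM (SD, n = 3, as in all CPM values given with ±), a log2 fold change of 1.5 ± 0.09 (SE, as in all log2 values given with ±). Msx1, a homeobox factor of cranial bone, rose by 1.06 ± 0.12 on the log2 scale, Bhlhe40 by 0.77 ± 0.05 and Twist1 by 0.72 ± 0.05. Dlx5, a homeobox activator of Runx2 and Sp7, was at low levels, 2.02, 2.14 and 2.18 CPM at d2.5 and 3.33, 2.5 and 3.32 CPM at d5. Its call (adjusted p = 0.0335) was lost in every fit that left out 1 library except that without d5 replicate 2 (adjusted p between 0.0601 and 0.114), with total-count scaling (0.211), the replicate block (0.0506) and DESeq2 (0.13). Msx2 (4.92, 8.39 and 6.02 CPM at d2.5 and 5.19, 4.35 and 4.72 CPM at d5) overlapped between the days, sat at the threshold (adjusted p = 0.0499) and lost its call without d2.5 replicate 2 or 3 and without d5 replicate 2 or 3 (0.0667 to 0.314), with RLE factors (0.0543), the block (0.0582) and DESeq2 (0.0991). Atf4, an osteoblast factor that also drives the amino acid response, stood at 368, 344 and 361 CPM at d2.5 and 432, 279.6 and 357 CPM at d5, with no difference of the means past the threshold (adjusted p = 0.948).

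Bone matrix genes were mostly higher at d5, whereas Spp1, Ibsp and Dmp1 were lower. Of 29 tested, 18 were higher and 6 lower, with a median of 0.89, and 14 had risen and 3 had fallen at least 2-fold. Together the 35 listed genes took 4.72% to 4.84% of a library's gene counts at d2.5 and 10.5% to 10.6% at d5. Most of these counts, on both days, were those of Col1a1, Col1a2 and Postn. Col1a1, a chain of type I collagen, stood at 12488, 12247 and 12248 CPM at d2.5 and 31874, 29599 and 31572 CPM at d5 (log2 fold change 1.33, SE 0.04, adjusted p = 3.8e-13). Col1a2, the other chain, stood at 17261, 17169 and 17068 CPM at d2.5 and 37665, 36785 and 37346 CPM at d5. Per kilobase of exon, averaged over both days, these were among the 3 most abundant of the genes that had risen at least 2-fold. Col1a1 went from 1878 to 4726 CPM per kb and Col1a2 from 1381 to 2999. Postn (periostin), a matrix protein of periosteum and sutures, was the other of the 3, going from 626 to 3437 CPM per kb. In each library Postn was at 5699, 5239 and 5414 CPM at d2.5 and 28391, 31724 and 29603 CPM at d5 (log2 fold change 2.46, SE 0.05, adjusted p = 1.4e-14), and the lowest d5 library was far above the highest d2.5 library. Sparc (osteonectin), which binds collagen and calcium, rose in the same manner, from 3313 ± 43.3 to 11114 ± 173 CPM (1.75 ± 0.03).

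Spp1, Ibsp and Dmp1, which encode acidic phosphoproteins of mineral, were lower at d5. Spp1 (osteopontin) stood at 3992, 3817 and 3901 CPM at d2.5 and 1382, 1173 and 1243 CPM at d5 (log2 fold change −1.62, SE 0.05, adjusted p = 1.9e-12). It was the most abundant per kilobase of the genes that fell at least 2-fold, from 2368 to 768 CPM per kb. Ibsp (bone sialoprotein) stood at 205, 198 and 200.2 CPM at d2.5 and 85.8, 138 and 109 CPM at d5 (log2 fold change −0.85, SE 0.11, adjusted p = 7.0e-06), and Dmp1, a protein of osteocytes, at 10.8, 12.2 and 11.7 CPM at d2.5 and 1.76, 2.09 and 1.14 CPM at d5 (log2 fold change −2.78, SE 0.17, adjusted p = 3.2e-09). No library of one day overlapped those of the other for these genes. Phex, an endopeptidase of osteocytes, stood at 3.37, 3.09 and 2.71 CPM at d2.5 and 1.96, 2.42 and 2.36 CPM at d5 and did not pass the test (adjusted p = 0.0594).

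Alpl, the alkaline phosphatase that frees phosphate for mineral and is widely used to mark early osteoblasts, stood at 100.4, 124 and 113 CPM at d2.5 and 165, 148 and 161 CPM at d5. It was higher in every d5 library, but by only 1.4 times (log2 fold change 0.49, SE 0.07, adjusted p = 1.6e-05). Bglap (osteocalcin), a late osteoblast marker, stood at 1.01, 0.631 and 0.376 CPM at d2.5 and 3.04, 3.06 and 1.75 CPM at d5, a rise from a level near the limit of detection (log2 fold change 1.92, SE 0.34, adjusted p = 1.5e-04), and reads of Bglap, Bglap2 and Bglap3 are hard to tell apart, so that its value is uncertain. Pth1r, the parathyroid hormone receptor, rose from 22.7 ± 2.27 to 33.5 ± 2.38 CPM. Mgp, an inhibitor of mineralization, rose from 61.7 ± 8.49 to 196 ± 31.4 CPM (1.67 ± 0.11). Of the osteoclast regulators, Tnfsf11 (RANKL) stood at 0.472, 0.126 and 0.301 CPM at d2.5 and 1.37, 2.58 and 2.01 CPM at d5 (log2 fold change 2.73, SE 0.41, adjusted p = 3.4e-05). Its decoy receptor Tnfrsf11b (osteoprotegerin) stood at 115, 90.8 and 103 CPM at d2.5 and 102, 94.8 and 98 CPM at d5, overlapping between the days (adjusted p = 0.421).

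**Figure D1:**
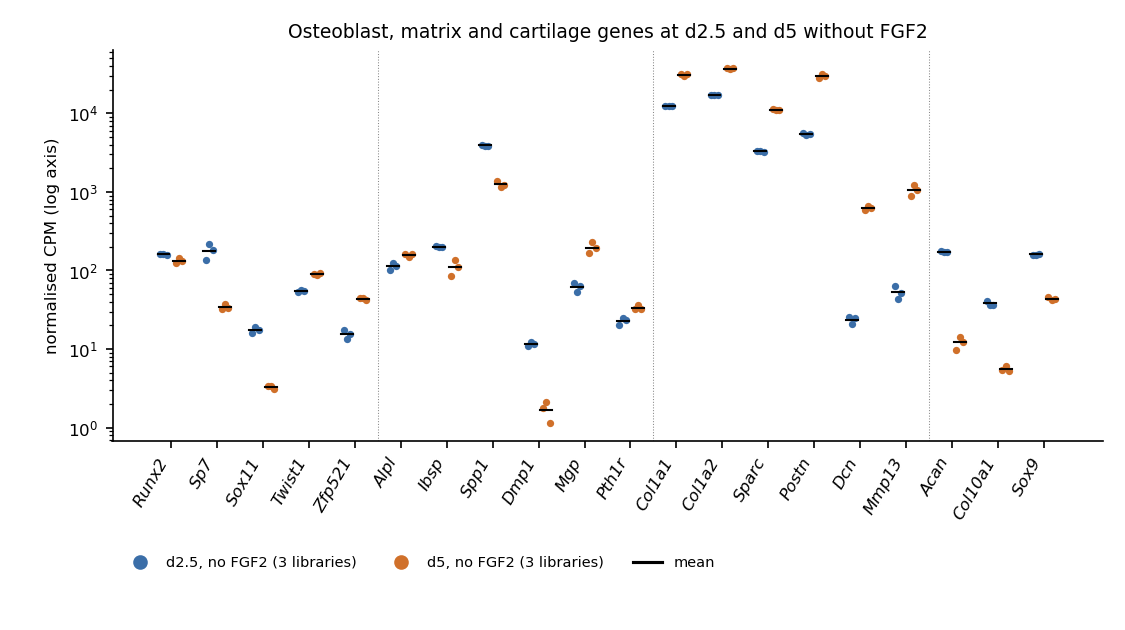
Normalised CPM (log axis) of 20 genes in each of the 3 libraries at d2.5 (blue) and the 3 at d5 (orange) without FGF2; points are libraries, short black lines are means, and dotted lines part transcription factors, mineral-related genes, abundant matrix genes with Mmp13, and cartilage genes. Col1a1, Sparc, Postn, Dcn and Mmp13 sit higher at d5, whereas Sp7, Ibsp, Spp1, Dmp1, Acan, Col10a1 and Sox9 sit lower.

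Runx factors bind a short core, ACCACA, and RefSeq promoter windows on GRCm38.p6 were searched for it on both strands over the 250 bases before each gene's start. It was found in 13% of 20545 genes, in 10.1% of those tested here and in 7 of the 23 bone matrix genes that have a window (30.4%). The windows of Runx2 (chr17:44814628-44814777, minus strand), Spp1 (chr5:104434961-104435110, plus strand) and Mmp13 (chr9:7272364-7272513, plus strand) are shown because each holds the core on the gene's own strand while the genes' levels moved differently, Runx2 and Spp1 being lower and Mmp13 higher at d5. They are written 5′ to 3′ on the gene's strand, with the core in capitals. RefSeq's start of Runx2 lies 170 bases inside the 5′ end of the GENCODE span given above, so that its window is within that span, and the windows of Cdc20, Cdk1, Asns and Slc7a11 shown further on overlap theirs in part. Such a match is a description of the letters, not a bound site.
Runx2: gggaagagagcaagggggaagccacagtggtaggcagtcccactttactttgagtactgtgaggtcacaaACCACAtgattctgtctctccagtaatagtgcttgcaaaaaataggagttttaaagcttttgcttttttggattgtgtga
Spp1: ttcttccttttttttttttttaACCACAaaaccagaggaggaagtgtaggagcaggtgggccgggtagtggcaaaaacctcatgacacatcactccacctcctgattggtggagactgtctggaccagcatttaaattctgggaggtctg
Mmp13: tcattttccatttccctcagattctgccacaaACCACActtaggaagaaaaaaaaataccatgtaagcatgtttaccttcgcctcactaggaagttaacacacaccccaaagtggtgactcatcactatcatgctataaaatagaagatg

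Collagen genes were mostly higher at d5. Of 30 collagen genes tested, 20 were higher and 9 lower (median log2 fold change 1.28), 17 of them at least 2-fold higher and 6 at least 2-fold lower. Col3a1, the fibrillar collagen of loose connective tissue, stood at 4271, 3773 and 3953 CPM at d2.5 and 15306, 16506 and 15976 CPM at d5 (log2 fold change 1.99, SE 0.05, adjusted p = 9.4e-14). Col12a1, which decorates collagen fibrils, rose from 1063 ± 126 to 6302 ± 81 CPM and Col11a1, a minor fibrillar chain, from 398 ± 70.3 to 3570 ± 164 CPM. The steepest rises were those of Col24a1, a fibrillar collagen of developing bone, from 0.0951 ± 0.0827 to 25.3 ± 1.2 CPM, and of Col8a1, a network collagen of vessel walls, from 29.5 ± 5.12 to 718 ± 28.2 CPM (7.97 ± 0.24 and 4.61 ± 0.09 on the log2 scale). Basement membrane chain Col4a1 rose from 391 ± 18 to 1563 ± 123 CPM, whereas Col4a6 (−1.31 ± 0.06) and Col15a1 (−2.43 ± 0.11) fell. Col6a1, a microfibrillar collagen, was slightly lower (−0.17 ± 0.03).

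Genes that process collagen moved less. Of 27 tested, 16 were higher and 4 lower (median 0.26, or 0.03 without the TMM factors). The share called was 74.1%, beside 65.9% of all genes. The lysyl oxidases that cross-link collagen and elastin rose, Lox standing at 1188, 1168 and 1176 CPM at d2.5 and 3529, 3510 and 3522 CPM at d5 (log2 fold change 1.58, SE 0.03, adjusted p = 3.7e-14) and Loxl2 going from 38.8 ± 6.02 to 332 ± 19.4 CPM. The procollagen peptidases Adamts2 and Tll1 rose by 2.16 ± 0.06 and 1.8 ± 0.06 on the log2 scale. Serpinh1, the collagen chaperone of the ER, stood at 1321, 1317 and 1295 CPM at d2.5 and 1378, 1242 and 1375 CPM at d5, and the days overlapped (adjusted p = 0.664).

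Elastic fibre genes and small leucine-rich proteoglycans, which coat collagen fibrils, were among the strongest risers of the lists. Of 26 tested, 21 were higher and 3 lower (median 1.45). Dcn (decorin) stood at 25.5, 20.6 and 24.7 CPM at d2.5 and 594, 666 and 624 CPM at d5 (log2 fold change 4.74, SE 0.07, adjusted p = 1.6e-15), and Lum (lumican) at 4.04, 2.02 and 3.38 CPM at d2.5 and 156, 198 and 169 CPM at d5 (log2 fold change 5.8, SE 0.14, adjusted p = 1.0e-13). Neither gene had a d5 library within 10-fold of a d2.5 library. Ogn and Aspn, both proteoglycans of connective tissue, rose from 610.3 ± 52.2 to 2009 ± 39.7 CPM and from 682 ± 68.9 to 2920 ± 189.5 CPM, and Fmod (fibromodulin) from 148 ± 2.04 to 633 ± 25.3 CPM. Bgn (biglycan), abundant on both days, fell from 3021 ± 69.4 to 2520 ± 31.3 CPM (−0.26 ± 0.03). Eln (elastin) came up from almost no counts, 0.0674, 0.126 and 0.0752 CPM at d2.5 and 2.94, 2.82 and 2.53 CPM at d5, and its partner Mfap4 in like manner (4.77 ± 0.31 on the log2 scale). Ltbp2, a latent TGF-beta binding protein, was the steepest faller (−1.23 ± 0.07).

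Matrix proteases and their inhibitors rose with the matrix, 18 of 22 being higher and 2 lower (median 1.31). Mmp13, the collagenase of bone and cartilage, stood at 63.6, 43.6 and 51.4 CPM at d2.5 and 886, 1238 and 1057 CPM at d5 (log2 fold change 4.33, SE 0.13, adjusted p = 9.7e-13). Mmp2, a gelatinase, and Mmp14, the membrane protease that activates it, rose from 851 ± 38.9 to 2658 ± 197 CPM and from 619 ± 24.2 to 2676 ± 148 CPM. Ctsk (cathepsin K), known best from osteoclasts, stood at 0.27, 0.442 and 0.376 CPM at d2.5 and 44.4, 45.1 and 46.4 CPM at d5 (log2 fold change 6.92, SE 0.14, adjusted p = 2.5e-14). Of the blood and macrophage markers, Cd68 was higher as well (from 0.933 to 1.76 CPM, log2 fold change 0.93, adjusted p = 0.0189 by edgeR), Csf1r did not pass the test (1.24 and 1.16 CPM), and Lyz2, Tyrobp and Aif1 had no count. The call of Cd68 was lost under DESeq2, with total-count scaling and without d2.5 replicate 1 or d5 replicate 3. The part of such cells in the rise of Ctsk was not tested. Among the inhibitors, Timp1 fell from 117 ± 9.04 to 66.4 ± 3.79 CPM while Timp3 rose from 112 ± 17.4 to 209 ± 1.67 CPM.

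**Figure D2:**
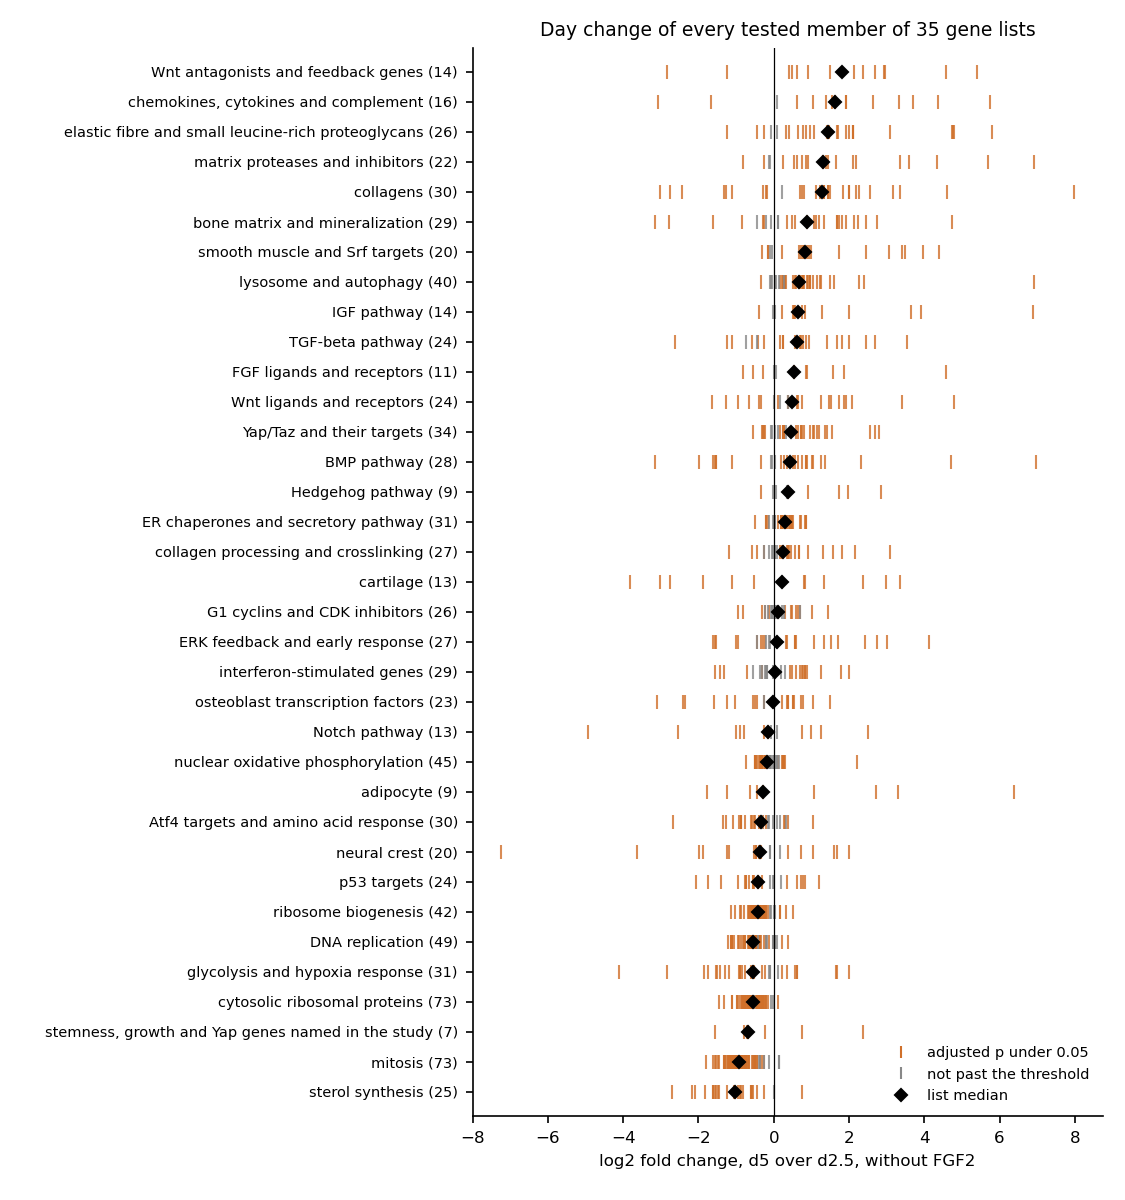
Log2 fold change (d5 over d2.5, without FGF2) of each tested member of 35 gene lists, one tick per gene, orange where the adjusted p was under 0.05 and grey where not; black diamonds are list medians, and numbers in brackets are genes tested. Medians run from −1.02 for sterol synthesis to 1.82 for Wnt antagonists and feedback genes.

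Genes of other lineages that O9-1 cells can enter gave mixed patterns. Cartilage genes split, with 6 of 13 higher and 6 lower (median 0.21, or −0.02 without the TMM factors). Sox9, the master regulator of chondrocytes, stood at 157, 159 and 164 CPM at d2.5 and 45.4, 41.7 and 43.8 CPM at d5 (log2 fold change −1.88, SE 0.05, adjusted p = 2.6e-13). Acan (aggrecan), a cartilage proteoglycan and Sox9 target, stood at 179, 173 and 171 CPM at d2.5 and 9.7, 14.3 and 12.4 CPM at d5 (log2 fold change −3.83, SE 0.08, adjusted p = 3.5e-14), and Col10a1, the collagen of hypertrophic chondrocytes, at 41.3, 36.8 and 36.2 CPM at d2.5 and 5.39, 6.04 and 5.33 CPM at d5 (log2 fold change −2.76, SE 0.10, adjusted p = 7.2e-12). All their d5 libraries were below all d2.5 libraries. Col2a1, the main collagen of cartilage, was lower but spread more, 562, 354 and 432 CPM at d2.5 and 159.9, 255 and 205 CPM at d5 (−1.11 ± 0.15). In contrast Comp, a protein of cartilage and tendon, rose from 0.759 ± 0.227 to 5.9 ± 2.31 CPM and Col9a2 from 9.6 ± 3.42 to 23.9 ± 6.92 CPM.

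Smooth muscle genes and targets of Srf were higher in 15 of 20 cases and lower in 3 (median 0.84). Acta2, the smooth muscle actin, stood at 215, 154 and 179 CPM at d2.5 and 1903, 1987 and 1957 CPM at d5 (log2 fold change 3.42, SE 0.09, adjusted p = 2.2e-13). Tagln (transgelin) stood at 10.2, 9.65 and 10.2 CPM at d2.5 and 77.2, 86.9 and 86.4 CPM at d5, Myl9, a myosin light chain, rose from 9.99 ± 2.32 to 155 ± 5.69 CPM, and Mylk, the kinase of that chain, from 16.5 ± 3.65 to 186 ± 9.72 CPM. The markers of mature smooth muscle Myh11 and Cnn1 were below the filter on low counts. Adipocyte genes split, 4 of 9 being higher and 5 lower. Lpl (lipoprotein lipase) stood at 0.674, 0.315 and 0.602 CPM at d2.5 and 38.3, 48.6 and 46.2 CPM at d5 (log2 fold change 6.39, SE 0.18, adjusted p = 5.7e-13), whereas Fabp4, a fatty acid carrier, fell from 26.4 ± 1.63 to 7.62 ± 1.57 CPM and Pparg, the master regulator of fat cells, from 17.2 ± 1.07 to 14 ± 0.295 CPM, a call lost under DESeq2 (adjusted p = 0.0545). Adipoq and Cidec, which mark mature fat cells, had at most 1 count over a day.

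Of the 20 NC genes tested, 6 were higher and 11 lower (median −0.36). Erbb3, a receptor of NC and glial precursors, stood at 5.66, 5.05 and 7.07 CPM at d2.5 and 0, 0.0806 and 0 CPM at d5, and Id3, an inhibitor of differentiation, fell from 316 ± 49.4 to 79.9 ± 1.66 CPM. Pax3, a paired-box factor of the NC, stood at 2.9, 2.59 and 2.78 CPM at d2.5 and 10.2, 10.5 and 12.5 CPM at d5 and was higher at d5 (log2 fold change 2.0, SE 0.14, adjusted p = 1.4e-08), as were Pdgfra (1.6 ± 0.05), a receptor of cranial mesenchyme, and Ednra (1.68 ± 0.09), the endothelin receptor. Snai2, a factor of migrating cells, was higher (0.38 ± 0.08), a call lost with total-count scaling. Of 7 genes that the study links to stemness, to proliferation or to Yap, 5 were lower and 2 higher (median −0.69), and since the study picked some of them from these libraries, their direction is not independent evidence. Sox2, a pluripotency factor, stood at 19.8, 21.4 and 20.8 CPM at d2.5 and 13.4, 10.7 and 14.4 CPM at d5 (log2 fold change −0.69, SE 0.10, adjusted p = 3.6e-05). Myc stood at 58.8, 58.3 and 54.1 CPM at d2.5 and 40.9, 33.5 and 30.8 CPM at d5 and Fosl1, an AP-1 factor, fell from 16.1 ± 1.4 to 5.46 ± 0.0601 CPM. The members that rose were Klf4, from 32.6 ± 2.49 to 55.3 ± 5.02 CPM, and Axin2, a Wnt target and suture stem cell marker, at 1.75, 1.45 and 1.58 CPM at d2.5 and 6.37, 9.19 and 9.09 CPM at d5 (log2 fold change 2.37, SE 0.19, adjusted p = 6.6e-08).

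Genes of DNA replication and mitosis were lower at d5, and those of G1 were not as a group. Among 26 genes of G1, 9 were higher and 5 lower (median 0.10, or −0.13 without the TMM factors). The share called was 53.8%, below the 65.9% of all genes. Ccnd1 (cyclin D1), which carries growth signals to the cycle, stood at 110.1, 113 and 116 CPM at d2.5 and 193, 178 and 183 CPM at d5 and was higher at d5 (log2 fold change 0.71, SE 0.04, adjusted p = 3.4e-09), as was Ccnd2, from 18.3 ± 0.691 to 37.4 ± 3.64 CPM. Cdkn1c (p57), a CDK inhibitor, rose from 5.72 ± 0.968 to 15.8 ± 0.213 CPM, whereas Cdkn1a (p21), another, fell from 209.8 ± 6.44 to 109 ± 6.65 CPM.

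Of 49 DNA replication genes, 37 were lower and 2 higher (median −0.54). Mcm5, a subunit of the replicative helicase, stood at 47.9, 57.9 and 53.1 CPM at d2.5 and 29.1, 19.5 and 23.9 CPM at d5 (log2 fold change −1.14, SE 0.11, adjusted p = 3.9e-07). Uhrf1, which copies DNA methylation, fell from 56.2 ± 5.38 to 26 ± 3.17 CPM and Rrm2, a subunit of ribonucleotide reductase, from 82.3 ± 10.6 to 54.5 ± 13.1 CPM. The members that were higher were Rrm1, from 135 ± 7.65 to 175 ± 14.2 CPM, and Pcna, from 71.7 ± 7.73 to 83.9 ± 9.24 CPM. The call of Pcna was lost with the replicate block (adjusted p = 0.0539) and without d2.5 replicate 1 or 3 and without d5 replicate 1 or 3 (0.0645 to 0.128), and its log2 value was −0.01 without the TMM factors.

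Of 73 mitosis genes, 67 were lower and none higher (median −0.92), with 30 at least 2-fold lower. The 6 others did not pass edgeR's test, and none was higher at an unadjusted p under 0.05 or by DESeq2. Mki67, the proliferation marker Ki-67, stood at 182, 194 and 185 CPM at d2.5 and 106, 61.7 and 85.3 CPM at d5 (log2 fold change −1.16, SE 0.12, adjusted p = 8.4e-07). Ccnb1 (cyclin B1) stood at 60.7, 72.7 and 69.9 CPM at d2.5 and 47.6, 23.6 and 31.6 CPM at d5 (log2 fold change −1.0, SE 0.16, adjusted p = 6.4e-05), and Cdc20, an activator of the anaphase complex, at 34.6, 40.3 and 39.3 CPM at d2.5 and 15.1, 7.01 and 11.4 CPM at d5 (log2 fold change −1.8, SE 0.16, adjusted p = 1.7e-07). Every d5 library lay below every d2.5 library for these genes. Cdk1, the mitotic kinase, stood at 58, 67.8 and 65 CPM at d2.5 and 55.2, 34.7 and 46.7 CPM at d5, so that d5 replicate 1 came close to the lowest d2.5 library (log2 fold change −0.49, SE 0.12, adjusted p = 0.00179). Plk1 and Cenpe, a kinase and a motor of mitosis, fell from 34.3 ± 1.67 to 11.9 ± 5.2 CPM and from 98.4 ± 1.67 to 32.5 ± 9.42 CPM.

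The d5 libraries differed among themselves in these genes. Summed over the mitosis list, they held 2659, 1618 and 2147 CPM in replicates 1, 2 and 3, beside 3590, 3991 and 3798 CPM at d2.5. The replication list held 1734, 1363 and 1555 CPM at d5, beside 1981, 2234 and 2108 CPM. Replicate 2 was the lowest at d5 and replicate 1 the highest. On both days replicate 3 lay between replicates 1 and 2 in both lists. Over all genes, the chi-square of counts per degree of freedom at d5 was 6.41 for replicates 1 and 2. For the pairs with replicate 3 it was 2.44 and 2.59. At d2.5 these values were 4.38, 2.74 and 2.16. Whether replicate 3 is independent of the others was not tested, and SDs, SEs and p-values would be too small if it is not. In Top2a, the topoisomerase of dividing cells, the d5 libraries stood at 239.5, 124 and 187 CPM beside 272, 303 and 282 CPM at d2.5. Without d5 replicate 2, 65 mitosis genes were lower and 2 higher, Spc25 and Pbk (named after their values were seen), with log2 fold changes of 0.38 and 0.36. Without d5 replicate 1, 71 were lower.

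**Figure D3:**
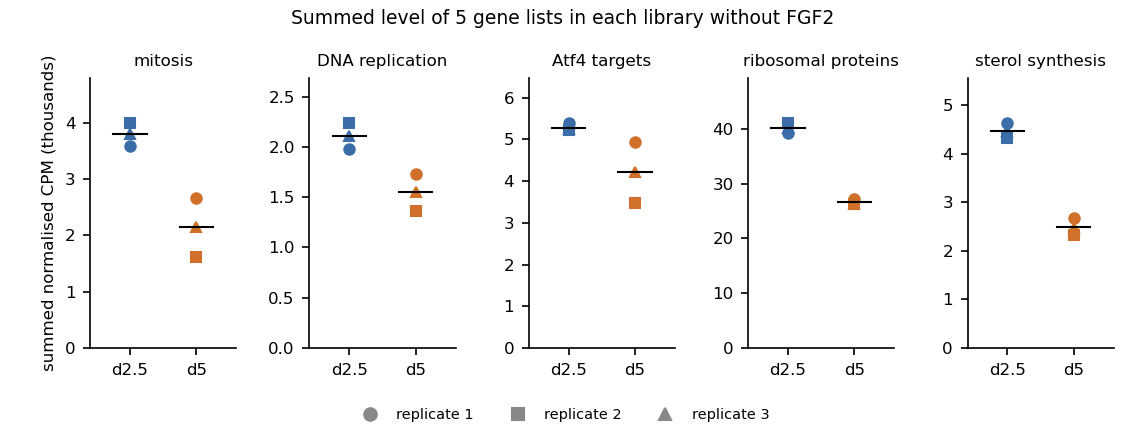
Summed normalised CPM (kilo-CPM, axes from 0) of 5 gene lists in each library at d2.5 (blue) and d5 (orange) without FGF2; circles, squares and triangles are replicates 1, 2 and 3, and lines are means. All d5 libraries sit below all d2.5 libraries in each list. At d5 replicate 1 is the highest and replicate 2 the lowest in the mitosis, DNA replication, Atf4 and sterol synthesis lists.

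Promoters of mitotic genes are known to carry a cell cycle homology region (CHR), TTTGAA, and CCAAT boxes bound by NF-Y, and those of replication genes E2F sites. In the same 250-base windows, TTTGAA on either strand was found in 21 of 61 mitosis genes (34.4%), 6 of 40 replication genes (15.0%) and 15.3% of all genes. The CCAAT box was found in 68.9%, 65.0% and 35.2% of these. The E2F form TTTCGCG, its variant form TTTGGCG or a further variant TTTCCCG, which can overlap one another on opposite strands, was found in 9.84%, 30.0% and 5.43%. Among only the genes tested here, the shares were 10.2% for TTTGAA, 37.0% for CCAAT and 8.5% for the E2F forms. The mitosis genes were thus near the background for E2F. Shown for the mitotic genes, with the CHR and CCAAT matches of either strand in capitals, are Cdc20 (chr4:118437344-118437423, minus strand), Mki67 (chr7:135716380-135716579, minus strand), Top2a (chr11:99024190-99024439, minus strand) and Cdk1 (chr10:69352913-69353012, minus strand).
Cdc20: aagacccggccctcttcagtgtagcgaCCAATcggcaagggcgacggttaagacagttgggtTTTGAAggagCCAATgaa
Mki67: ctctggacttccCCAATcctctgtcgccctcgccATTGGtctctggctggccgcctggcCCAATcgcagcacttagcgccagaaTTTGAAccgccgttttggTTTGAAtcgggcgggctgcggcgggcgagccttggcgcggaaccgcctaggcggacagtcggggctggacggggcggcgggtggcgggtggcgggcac
Top2a: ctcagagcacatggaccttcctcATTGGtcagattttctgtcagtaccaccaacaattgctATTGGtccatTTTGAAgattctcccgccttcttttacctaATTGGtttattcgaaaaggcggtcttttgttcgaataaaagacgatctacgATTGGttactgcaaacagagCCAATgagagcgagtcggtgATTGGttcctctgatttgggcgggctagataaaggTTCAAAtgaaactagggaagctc
Cdk1: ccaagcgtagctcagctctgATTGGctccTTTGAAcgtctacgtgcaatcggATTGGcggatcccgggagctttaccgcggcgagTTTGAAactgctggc

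For the replication genes Mcm5 (chr8:75109339-75109508, plus strand) and Mcm6 (chr1:128359706-128359835, minus strand), subunits of the same helicase, capitals mark the E2F forms, and the longer runs join a match on each strand.
Mcm5: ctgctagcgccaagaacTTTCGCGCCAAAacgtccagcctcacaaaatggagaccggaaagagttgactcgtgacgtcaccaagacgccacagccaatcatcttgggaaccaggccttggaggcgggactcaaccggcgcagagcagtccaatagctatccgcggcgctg
Mcm6: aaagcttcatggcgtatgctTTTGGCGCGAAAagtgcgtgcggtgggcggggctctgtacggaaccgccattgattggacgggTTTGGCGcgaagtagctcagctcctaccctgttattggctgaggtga

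The genes that make ribosomes fell together. Of 73 cytosolic ribosomal protein genes, 69 were lower and 1 higher (median −0.55), and the list held 39259 to 41048 CPM in a d2.5 library and 26290 to 27303 CPM in a d5 library. Rpsa, a protein of the small subunit, stood at 1444, 1487 and 1456 CPM at d2.5 and 622, 562 and 571 CPM at d5 (log2 fold change −1.32, SE 0.04, adjusted p = 2.4e-12). Rplp1, of the large subunit, stood at 519, 555 and 559 CPM at d2.5 and 256, 256 and 252 CPM at d5. Both were among the 3 most abundant genes per kilobase that fell at least 2-fold, Rpsa from 461 to 185 and Rplp1 from 1091 to 511 CPM per kb. The gene that was higher was Rpl14 (0.11 ± 0.04), a call lost with the replicate block and without d2.5 replicate 2 or 3 or d5 replicate 3 (adjusted p between 0.0561 and 0.0761), with −0.12 under total-count scaling. These genes have many processed pseudogenes, and reads that map to several places are set apart from the gene counts in the files.

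Ribosome biogenesis genes were lower in 34 of 42 cases and higher in 4 (median −0.42). Npm1 (nucleophosmin), a nucleolar chaperone, stood at 1251, 1272 and 1255 CPM at d2.5 and 746, 635 and 678 CPM at d5 (log2 fold change −0.88, SE 0.05, adjusted p = 1.1e-09), and Ncl (nucleolin) fell from 1074 ± 35.9 to 725 ± 52.4 CPM. Polr1a, the large subunit of RNA polymerase I, fell from 100.2 ± 1.98 to 53.6 ± 2.73 CPM, whereas Gnl3 (nucleostemin) rose from 74.3 ± 2.75 to 106 ± 7.92 CPM.

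Sterol synthesis had the lowest median of the 35 lists, markers of other cell types aside. Of 25 genes, 23 were lower, 1 was higher and 1 did not pass the test (median −1.02), and 13 were at least 2-fold lower. Hmgcs1, which makes HMG-CoA, stood at 780.3, 736 and 766 CPM at d2.5 and 391, 353 and 350.0 CPM at d5 (log2 fold change −1.06, SE 0.05, adjusted p = 6.4e-11). Every d5 library was below every d2.5 library. Mvd, a decarboxylase further along the pathway, fell from 49.9 ± 3.31 to 11.8 ± 1.15 CPM and Idi1, an isomerase, from 87.5 ± 3.6 to 31.4 ± 4.23 CPM. The exceptions were Ebp, a sterol isomerase, which rose from 45.9 ± 3.0 to 77.2 ± 4.0 CPM, and Insig1, the sterol-sensing anchor, at 123, 115 and 119 CPM at d2.5 and 128, 114 and 116 CPM at d5 (adjusted p = 0.997).

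The promoters of these genes are known to bind SREBP together with NF-Y. CCAAT was found in 16 of the 17 sterol genes with a window (94.1%, beside 35.2% of all genes and 37.0% of those tested). A high share of CCAAT did not mark the lists that fell. It was 76.9% in genes of the ER and secretory pathway, which were mostly higher at d5. In cytosolic ribosomal protein genes, which were mostly lower, it was 29.6%. The sterol element form CACCCCAC was found in 1 of 17 sterol genes (5.88%, beside 2.52% of all genes and 2.73% of those tested). That 1 gene was Hmgcs1 (chr13:119690201-119690350, plus strand), which is shown beside Mvd (chr8:122443423-122443502, minus strand) with both motifs in capitals on either strand.
Hmgcs1: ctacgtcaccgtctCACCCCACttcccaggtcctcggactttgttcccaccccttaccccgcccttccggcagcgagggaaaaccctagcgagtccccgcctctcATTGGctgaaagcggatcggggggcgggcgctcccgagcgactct
Mvd: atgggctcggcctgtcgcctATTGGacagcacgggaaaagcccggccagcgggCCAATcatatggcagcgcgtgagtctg

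Targets of Atf4 and genes of amino acid supply were lower in 19 of 30 cases and higher in 4 (median −0.34). Slc7a11, the cystine carrier, stood at 142, 151 and 136 CPM at d2.5 and 27.4, 16 and 24.1 CPM at d5 (log2 fold change −2.68, SE 0.11, adjusted p = 3.9e-11). Shmt2, of mitochondrial one-carbon metabolism, fell from 178 ± 9.28 to 85 ± 18.4 CPM and Slc1a5, a glutamine carrier, from 67.4 ± 2.52 to 26.4 ± 1.34 CPM. Nupr1, a stress factor, was higher, from 18 ± 0.443 to 37.2 ± 4.19 CPM. Here too the d5 libraries stood apart in the same order as in mitosis, with summed levels of 4929, 3487 and 4210 CPM in replicates 1, 2 and 3 beside 5221 to 5387 CPM at d2.5. That order was not particular to these lists. Sterol synthesis, ribosome biogenesis, glycolysis and oxidative phosphorylation genes had it as well, and matrix protease and TGF-beta genes had the reverse. Asns, the asparagine synthetase, stood at 216, 214 and 213 CPM at d2.5 and 201, 106 and 148 CPM at d5 (log2 fold change −0.51, SE 0.14, adjusted p = 0.00636, with an adjusted p of 0.093 under DESeq2). Trib3 and Chac1, both induced by Atf4, stood at 58, 50.0 and 54.8 CPM at d2.5 and 67.1, 33.3 and 49.4 CPM at d5 and at 31.5, 31.7 and 30.5 CPM at d2.5 and 31.2, 17.1 and 27.9 CPM at d5, and did not pass the test, though both passed without d5 replicate 1 (adjusted p = 0.00542 and 0.00374). Without d5 replicate 2, 17 genes of the list were lower and 7 higher, and without d5 replicate 1, 22 were lower and 4 higher.

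The element that Atf4 binds with C/EBP partners, TGATGNAA on either strand, was found in 7 of the 24 genes of this list with a window (29.2%). It was found in 3.31% of all genes and 1.94% of those tested. It is shown in capitals for Asns (chr6:7693210-7693269, minus strand) and, with a copy on each strand, for Slc7a11 (chr3:50443614-50443703, minus strand).
Asns: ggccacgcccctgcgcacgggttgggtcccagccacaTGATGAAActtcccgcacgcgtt
Slc7a11: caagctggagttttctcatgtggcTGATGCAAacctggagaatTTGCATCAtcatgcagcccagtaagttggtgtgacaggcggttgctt

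Glycolysis and hypoxia genes were lower in 19 of 31 cases and higher in 8 (median −0.54). Pgk1, a glycolytic kinase, stood at 719.7, 829 and 787 CPM at d2.5 and 234, 201 and 209 CPM at d5 (log2 fold change −1.86, SE 0.06, adjusted p = 2.6e-12), and Ldha, which makes lactate, at 448, 529.7 and 506 CPM at d2.5 and 189, 162 and 172 CPM at d5 (log2 fold change −1.51, SE 0.06, adjusted p = 5.1e-11). Aldoc, an aldolase, fell from 22.5 ± 1.61 to 1.29 ± 0.323 CPM. The genes at the top of the pathway went the other way, Hk2 (hexokinase) rising from 28.9 ± 0.273 to 91.5 ± 1.63 CPM and Pfkfb3, which stimulates phosphofructokinase, from 5.69 ± 0.568 to 18.4 ± 1.77 CPM. The glucose carrier Slc2a1 stood at 38.6, 34.7 and 40.0 CPM at d2.5 and 38, 33.8 and 34.5 CPM at d5 (adjusted p = 0.28), and Vegfa likewise did not pass (adjusted p = 0.276). Nuclear genes of oxidative phosphorylation shifted little, 24 of 45 being lower and 8 higher (median −0.17). The share called was 71.1%, beside 65.9% of all genes. Under total-count scaling the 8 became 1, Ppargc1a, a coactivator of mitochondrial genes, which rose from 2.81 ± 0.306 to 12.9 ± 0.767 CPM.

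Genes of the secretory pathway and the lysosome were higher at d5. Of 31 ER and secretory genes, 22 were higher and 4 lower (median 0.29), which became 12 and 10 (median 0.06) with total-count scaling. Hspa5 (BiP), the main ER chaperone, stood at 659, 736 and 687 CPM at d2.5 and 1175, 1104 and 1121 CPM at d5 (log2 fold change 0.71, SE 0.04, adjusted p = 3.8e-09). Creb3l1 (OASIS), a factor for collagen secretion in osteoblasts, rose from 86.5 ± 11.1 to 157 ± 12.3 CPM and Xbp1, of the unfolded protein response, from 134 ± 1.28 to 185 ± 1.78 CPM. Of 40 lysosome and autophagy genes, 31 were higher and 1 lower (median 0.67, or 0.44 with total-count scaling). Ctsb (cathepsin B) stood at 733, 732 and 722 CPM at d2.5 and 1656, 1777 and 1676 CPM at d5 (log2 fold change 1.22, SE 0.04, adjusted p = 1.7e-12), and Hexa, a hexosaminidase, rose from 67.8 ± 5.03 to 359 ± 10.9 CPM. Sqstm1 (p62) rose from 472 ± 18.3 to 668 ± 28.2 CPM. The element TCACGTGA known from lysosomal promoters was found in 2 of 30 genes with a window (6.67%), beside 0.949% of all genes and 1.64% of those tested. Tfeb, which controls the group, stood at 6.94, 7.51 and 7.14 CPM at d2.5 and 6.86, 8.78 and 7.95 CPM at d5 (adjusted p = 0.354). Targets of p53 were lower in 14 of 24 cases and higher in 6 (median −0.42), with Ccng1 falling from 399.7 ± 12.4 to 252 ± 6.96 CPM, Eda2r from 20.7 ± 0.587 to 6.18 ± 0.856 CPM and Sesn1 rising from 64.2 ± 2.32 to 109.7 ± 3.53 CPM.

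Wnt genes were mostly higher at d5, among ligands and receptors as among antagonists and feedback genes. Of 24 ligands and receptors, 15 were higher and 6 lower (median 0.49). Wnt4 stood at 21.8, 27.6 and 24.1 CPM at d2.5 and 6.76, 8.86 and 7.69 CPM at d5 (log2 fold change −1.65, SE 0.12, adjusted p = 1.8e-08), whereas Wnt5a, a noncanonical ligand, rose from 6.41 ± 0.87 to 23.2 ± 1.22 CPM and Wnt9a from 1.66 ± 0.438 to 17.7 ± 2.1 CPM. The receptor Fzd1 rose from 70.5 ± 2.61 to 264 ± 6.58 CPM, and the coreceptor Lrp5 stood at 159.9, 151 and 148 CPM at d2.5 and 149, 159.7 and 153 CPM at d5 (adjusted p = 0.878). Rspo1, which boosts Wnt signals, came up from almost no counts to 3.92, 4.35 and 3.84 CPM. Antagonists and feedback genes had the highest median of those 35 lists, 1.82, with 12 of 14 higher and 2 lower. Sfrp1, a secreted Wnt binder, stood at 17.2, 11 and 13 CPM at d2.5 and 108, 106 and 107 CPM at d5 (log2 fold change 2.96, SE 0.10, adjusted p = 3.2e-12), and Dkk3 rose from 82.2 ± 10.7 to 630.0 ± 34.1 CPM. Wif1, another binder, rose from 5.26 ± 1.06 to 34.2 ± 6.9 CPM and the feedback gene Nkd2 from 0.788 ± 0.173 to 19.3 ± 2.19 CPM. The members that fell were Notum, an enzyme that inactivates Wnt proteins, at 117, 166 and 138 CPM at d2.5 and 18.7, 20.9 and 19.7 CPM at d5 (log2 fold change −2.82, SE 0.12, adjusted p = 3.0e-11), and the Wnt-responsive factor Tcf7, from 41.5 ± 4.2 to 17.5 ± 0.448 CPM.

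In the BMP pathway 17 of 28 genes were higher and 8 lower (median 0.43). Ligands rose, Bmp4 standing at 2.49, 1.89 and 2.56 CPM at d2.5 and 65.5, 58.8 and 55.8 CPM at d5 (log2 fold change 4.7, SE 0.11, adjusted p = 1.2e-13), Bmp3, a member that opposes bone growth, at 0.337, 0.189 and 0.376 CPM at d2.5 and 37, 37.4 and 40.7 CPM at d5 (log2 fold change 6.98, SE 0.16, adjusted p = 8.8e-14), and Bmp2 going from 7.8 ± 1.33 to 15.8 ± 1.76 CPM. Some genes known to respond to BMP signals were lower, while others such as Msx1, described above, were higher. Id1 stood at 49.6, 80.4 and 65.6 CPM at d2.5 and 7.64, 8.38 and 5.94 CPM at d5 (log2 fold change −3.15, SE 0.18, adjusted p = 1.1e-09), Smad6, an inhibitory Smad, at 31.6, 50.3 and 42.1 CPM at d2.5 and 13.4, 15.1 and 14.6 CPM at d5 (log2 fold change −1.52, SE 0.14, adjusted p = 3.3e-07), and the decoy receptor Bambi went from 47 ± 8.7 to 16 ± 1.4 CPM. For Id1, Smad6 and Bambi, d2.5 replicate 1 was the lowest of its day and still above all d5 libraries. Grem1 (gremlin), a secreted BMP antagonist, rose from 1024 ± 29.6 to 2442 ± 93.2 CPM.

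Of 24 TGF-beta genes, 16 were higher and 6 lower (median 0.63). Tgfb2 stood at 35.5, 31.9 and 30.5 CPM at d2.5 and 213, 216 and 205 CPM at d5 (log2 fold change 2.69, SE 0.06, adjusted p = 2.9e-14), and Tgfb3 rose from 88.6 ± 8.7 to 235 ± 16.8 CPM. Among the targets, Tgfbi, a matrix protein, stood at 1415, 1512 and 1450 CPM at d2.5 and 245, 233 and 234 CPM at d5 and fell (log2 fold change −2.62, SE 0.04, adjusted p = 3.3e-15), whereas Thbs1 (thrombospondin) rose from 675 ± 22.8 to 2722 ± 185 CPM and Pmepa1, a feedback gene, from 25.8 ± 2.34 to 142 ± 12.1 CPM. The inhibitory Smad7 fell from 36.8 ± 6.1 to 17.1 ± 0.504 CPM.

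No FGF2 had been added to these cells, and the FGF genes they express were mostly higher at d5. Of 11 ligands and receptors tested, 6 were higher and 3 lower (median 0.53). The receptor Fgfr1 stood at 161, 136 and 144 CPM at d2.5 and 516, 564 and 542 CPM at d5 (log2 fold change 1.88, SE 0.06, adjusted p = 1.2e-12) and Fgfr2 at 301, 278 and 281 CPM at d2.5 and 512, 533 and 513 CPM at d5 (log2 fold change 0.86, SE 0.04, adjusted p = 2.0e-10), while Fgfr3 fell from 27.8 ± 1.72 to 22.9 ± 2.06 CPM. Fgf2 itself stood at 7.08, 8.2 and 6.69 CPM at d2.5 and 22.1, 21.1 and 23.2 CPM at d5 (log2 fold change 1.59, SE 0.10, adjusted p = 3.7e-09), and Fgf18, a ligand of bone and cartilage, stood at 0.404, 0 and 0.301 CPM at d2.5 and 4.12, 5.4 and 7.43 CPM at d5. Genes that report ERK activity divided, 13 of 27 being higher and 9 lower (median 0.10, or −0.13 without the TMM factors). Dusp6, an ERK phosphatase, stood at 14.3, 14.3 and 14.7 CPM at d2.5 and 25.5, 35.6 and 28.9 CPM at d5 (log2 fold change 1.06, SE 0.11, adjusted p = 7.9e-07), and Egr1, an immediate early factor, at 12.1, 8.39 and 9.7 CPM at d2.5 and 64.3, 97.7 and 82.2 CPM at d5 (log2 fold change 3.02, SE 0.15, adjusted p = 2.2e-10). Spry4, a feedback inhibitor, rose from 4.57 ± 0.164 to 11.5 ± 1.49 CPM, whereas Etv4 fell from 8.43 ± 0.209 to 4.28 ± 1.94 CPM and Junb from 77.5 ± 10.9 to 25.2 ± 3.03 CPM.

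Of 34 Yap and Taz genes and targets, 24 were higher and 5 lower (median 0.45). Wwtr1, which encodes Taz, stood at 139, 135 and 136 CPM at d2.5 and 218, 227 and 229.8 CPM at d5 (log2 fold change 0.72, SE 0.04, adjusted p = 9.7e-10), and Yap1 at 144, 144 and 149 CPM at d2.5 and 134, 149 and 144 CPM at d5 (adjusted p = 0.512). The targets Ccn2 (CTGF) and Ccn1 (CYR61) rose from 158 ± 2.26 to 459 ± 72.8 CPM and from 211 ± 15.4 to 434 ± 24.1 CPM, and Vgll3, a cofactor of TEAD, from 70.5 ± 7.86 to 416 ± 8.72 CPM. Notch genes were higher in 4 of 13 cases and lower in 7 (median −0.16), and the target Hey1 stood at 83.5, 120.2 and 109 CPM at d2.5 and 20.1, 17.3 and 16.8 CPM at d5 (log2 fold change −2.54, SE 0.12, adjusted p = 2.2e-10), whereas the ligand Jag1 rose from 37.4 ± 4.91 to 88.9 ± 2.89 CPM and the target Hes1 from 4.72 ± 1.11 to 9.4 ± 1.36 CPM. In the Hedgehog pathway 5 of 9 genes were higher and 1 was lower (median 0.39, or 0.16 with total-count scaling). The share called, 66.7%, was close to the 65.9% of all genes. Gli2 rose from 5.76 ± 0.373 to 22.7 ± 1.78 CPM and the coreceptor Gas1 from 97.8 ± 19.4 to 322 ± 15.3 CPM. Gli1 stood at 1.42, 1.83 and 0.978 CPM at d2.5 and 1.27, 2.58 and 1.57 CPM at d5 (adjusted p = 0.311).

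The IGF pathway held 1 of the steepest rises of an abundant gene. Igf1, the growth factor that acts on osteoblasts and their precursors, stood at 6.88, 6.56 and 5.34 CPM at d2.5 and 775, 727 and 736 CPM at d5 (log2 fold change 6.89, SE 0.07, adjusted p = 3.3e-17). The d5 libraries were all more than 100-fold above the d2.5 libraries. In all, 11 of 14 genes of the pathway were higher and 1 was lower (median 0.65). Htra1, a protease, rose from 73.9 ± 5.63 to 926 ± 14.4 CPM and Pappa, which cleaves IGF binding proteins, from 1.94 ± 0.17 to 29.4 ± 2.45 CPM. The binding proteins Igfbp3 and Igfbp4 rose from 11.5 ± 1.46 to 46.1 ± 1.7 CPM and from 539 ± 8.02 to 771 ± 6.83 CPM, and Igfbp6 fell from 115 ± 2.45 to 88.4 ± 1.01 CPM.

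Interferon-stimulated genes did not move as a body, 12 of 29 being higher and 5 lower (median 0.03, or −0.20 without the TMM factors). The share called was 58.6%, below the 65.9% of all genes. Ifitm3, a membrane restriction factor, fell from 169 ± 3.36 to 68.4 ± 6.42 CPM and Isg15 from 4.53 ± 0.842 to 1.54 ± 0.239 CPM, whereas Ifit2 rose from 20.8 ± 1.5 to 38.4 ± 0.766 CPM. Chemokines, cytokines and complement genes were higher in 13 of 16 cases and lower in 2 (median 1.63). Cxcl12, the chemokine of mesenchymal niches, stood at 30.9, 29.8 and 28.7 CPM at d2.5 and 79.2, 108 and 89.8 CPM at d5 (log2 fold change 1.63, SE 0.09, adjusted p = 1.1e-09). The complement genes C1s1 and C1ra, which encode proteases, rose from 4.03 ± 0.505 to 83.1 ± 3.97 CPM and from 12.4 ± 2.63 to 123 ± 3.66 CPM. The neutrophil chemokine Cxcl5 fell from 4.47 ± 1.02 to 0.532 ± 0.0527 CPM.

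Over all genes, the 10 steepest rises among genes of mean log2 CPM of at least 1 were led by Selenop, the plasma selenium carrier, at 0.27, 0.189 and 0.301 CPM at d2.5 and 107, 137 and 120.0 CPM at d5 (log2 fold change 8.87, SE 0.17, adjusted p = 1.9e-14). Fmo2 and Fmo1, flavin monooxygenases, stood at 0.539, 0.694 and 0.827 CPM at d2.5 and 204, 280.1 and 239 CPM at d5 and at 1.28, 0.757 and 1.05 CPM at d2.5 and 196, 280.1 and 253 CPM at d5. Col24a1, Egfl6, Hmcn1, Bmp3, Mamdc2, Ctsk and Igf1 complete the group, among them Hmcn1 (hemicentin), a matrix protein of basement membranes, and Egfl6, an adhesive matrix protein, which reached 11.6, 12.9 and 14 CPM at d5. At d2.5 all but Fmo1 and Igf1 were under 1 CPM in their mean.

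The 10 steepest falls were those of Krt42, Erbb3, Krt14, Selp, Krt16, Ptprn, Fam19a1, Chl1, Fat2 and Slc14a1. Krt42 had no count at d5 and 170 counts at d2.5, which makes it at least 43.2-fold lower when 3 counts are taken as the limit over the d5 libraries. Krt14, a keratin of basal epithelium, stood at 4.11, 4.92 and 3.84 CPM at d2.5 and 0.098, 0 and 0 CPM at d5, and Selp (P-selectin) at 5.46, 8.45 and 8.57 CPM at d2.5 and 0, 0.0806 and 0.0874 CPM at d5. Krt14, Krt16 and Krt42 are close paralogs whose reads are hard to part, and Krt19, another epithelial keratin, fell with them, standing at 5.12, 4.1 and 4.51 CPM at d2.5 and 0.882, 0.161 and 0.262 CPM at d5 (log2 fold change −3.44, SE 0.34, adjusted p = 5.4e-07). The other 8 epithelial markers held at most 20 counts over a day, the list of 10 summing to 8.80 to 10.3 CPM at d2.5 and 0.645 to 1.08 CPM at d5. Ptprn, a protein of secretory granules in neuroendocrine cells, stood at 40.2, 36 and 39.6 CPM at d2.5 and 0.784, 0.645 and 0.437 CPM at d5 (log2 fold change −5.94, SE 0.15, adjusted p = 2.2e-13). With it fell the neuronal markers Stmn2, at 44.6, 44.2 and 41.7 CPM at d2.5 and 3.14, 1.61 and 3.06 CPM at d5 (log2 fold change −4.08, SE 0.13, adjusted p = 2.9e-12), and Tubb3, at 19.8, 23 and 19.6 CPM at d2.5 and 2.16, 0.564 and 1.57 CPM at d5 (log2 fold change −3.91, SE 0.21, adjusted p = 6.6e-10). The neuron and glia list summed to 67.7 to 73.0 CPM at d2.5 and 7.90 to 12.5 CPM at d5, with Mbp not past the test and Rbfox3, Snap25, Elavl4 and Gfap at no more than 7 counts over a day. Pecam1 and Egfl7, of endothelium, were lower as well, from 3.42 and 3.23 CPM to 0.559 and 0.608 CPM in their means. The part of other cell types in these results was not tested.

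The Ctrl+FGF2 libraries went through the same 2 days and share no library with those above. They ask which of the day changes differ when FGF2 is present, and a shift common to all libraries of a day drops out of that difference. In a fit of the 12 siCtrl libraries (14008 genes) the day changed 79.9% of genes with FGF2, 40.7% being higher and 39.2% lower. The day change itself differed between the conditions for 8470 genes, 60.5%. Of the 8815 genes called without FGF2, 6452 (73.2%) were called with FGF2 in the same direction, which is 57.6% of the 11195 calls there, and 1137 were called in the opposite one. Genes that rose at least 2-fold without FGF2 had a median log2 fold change of 1.73 in this fit and of 2.21 with FGF2, and 1083 of the 1195 were also called higher there. Genes that fell at least 2-fold had medians of −1.41 and −1.31, and 652 of the 861 were also called lower. Both conditions share the batches of the days, so calls in the same direction are not independent of batch.

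The day changes of replication and mitosis genes were less negative without FGF2 than with it. All 73 mitosis genes and all 49 replication genes passed the test of the difference, each with the higher day change without FGF2. Medians were −0.93 without and −3.74 with FGF2 for mitosis and −0.54 and −2.28 for replication. Mki67 stood at 185, 198 and 189 CPM at d2.5 and 108, 62.9 and 86.7 CPM at d5 without FGF2, scaled over the 12 libraries, and at 382, 379 and 391 CPM and 35.6, 14.1 and 25 CPM with it. The cells with FGF2 thus began above and ended below those without. All 30 Atf4 targets also had the higher day change without FGF2 (medians −0.34 and −2.44). Atf4 itself stood at 375, 352 and 369 CPM and 442, 285 and 363 CPM without FGF2, and at 599, 614 and 606 CPM and 118, 126 and 126 CPM with it, a difference of the day changes of 2.29 on the log2 scale (SE 0.13, adjusted p = 3.3e-12). Trib3 gave 4.79 (1.5e-11).

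For some G1 and ERK genes the direction differed between the conditions. Ccnd1 stood at 112, 116 and 118 CPM at d2.5 and 198, 182 and 186 CPM at d5 without FGF2, and at 930.0, 937 and 945 CPM and 215, 151 and 179 CPM with it. It therefore rose in the one and fell in the other, to overlapping levels (difference 3.08, SE 0.11, adjusted p = 1.9e-15). Dusp6 gave a difference of 3.31, with 126, 129 and 128 CPM at d2.5 and 29.1, 25.7 and 26.1 CPM at d5 with FGF2. Klf4, Myc and Hes1 differed by 2.07, 2.19 and 2.93.

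Several osteoblast, matrix and cartilage genes differed the other way. Runx2 stood at 96.7, 90.3 and 91 CPM at d2.5 and 186, 178 and 172 CPM at d5 with FGF2, a rise, where it fell without (difference −1.21, SE 0.07, adjusted p = 6.9e-12). Sp7 stood at 27.5, 25.2 and 26.1 CPM and 52.4, 37.4 and 43.2 CPM with FGF2, a small rise from a low start (difference −3.1, SE 0.20, adjusted p = 3.1e-11), and its d5 levels overlap between the conditions. Alpl was almost without counts at d2.5 with FGF2, 0.142, 0.146 and 0.134 CPM, and reached 66.6, 46.1 and 50.4 CPM at d5 (difference −8.01). Fmod and Col2a1 did likewise (differences −8.44 and −9.0). Acan stood at 43.7, 39 and 42.1 CPM and 69.3, 55.4 and 64 CPM with FGF2, so that its fall without FGF2 had no counterpart (difference −4.42, adjusted p = 3.8e-17). The cartilage list had a median of 0.21 without and 3.07 with FGF2. Of its 13 genes 9 differed, beside 60.5% of all genes, and all 9 were lower in day change without FGF2.

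Signaling genes with opposite day changes were Wnt4 (difference −2.88), Smad6 (−3.2), Hey1 (−6.29) and Fgfr3 (−4.79), each lower at d5 without and higher with FGF2. Fgfr2 rose in both and more steeply with FGF2, from 31.4, 27.8 and 29.5 CPM to 764, 693 and 709 CPM (difference −3.75). Medians lay close in both conditions for TGF-beta (0.63 and 0.59), ER and secretory genes (0.29 and 0.30), oxidative phosphorylation (−0.17 and −0.11) and bone matrix (0.89 and 0.77), among others. Single genes still differed in these lists, as did 60.5% of all genes. They were 6 upward and 11 downward of 24 for TGF-beta, 8 and 14 of 31 for ER and secretory genes, 9 and 15 of 45 for oxidative phosphorylation and 11 and 15 of 29 for bone matrix.

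**Figure D4:**
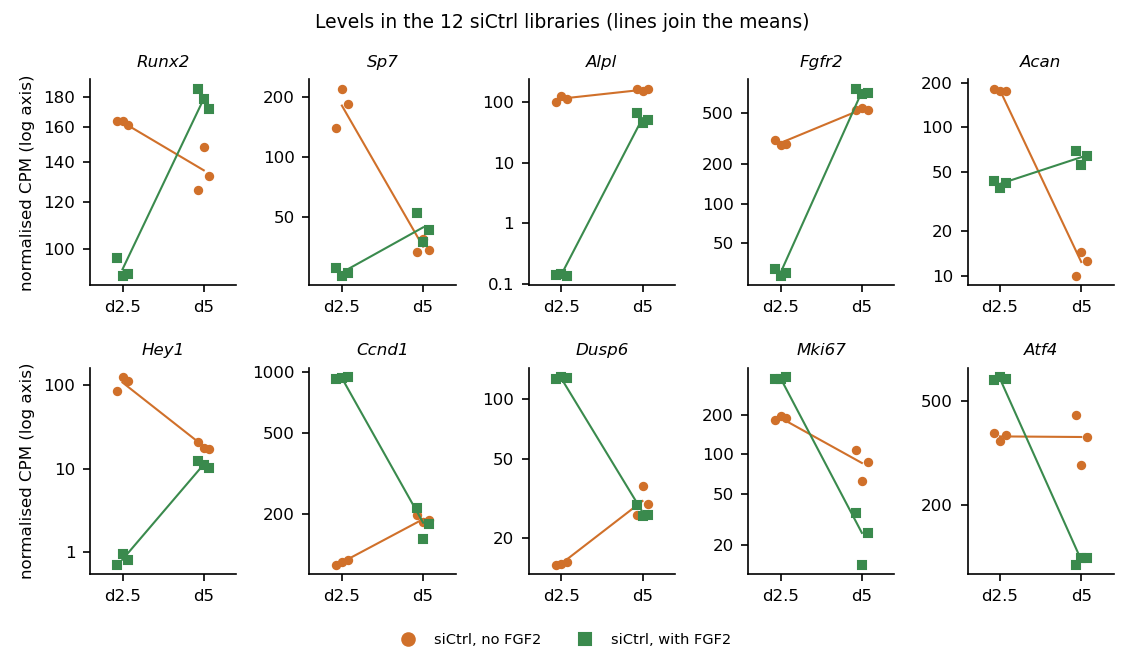
Normalised CPM (log axes, each with its own range) of 10 genes in the 12 siCtrl libraries at d2.5 and d5; orange circles are libraries without FGF2, green squares with FGF2, and lines join the means of 3. Without FGF2 Runx2, Sp7, Acan and Hey1 fall and Ccnd1 and Dusp6 rise, and with FGF2 each of them goes the other way.

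**Figure D5:**
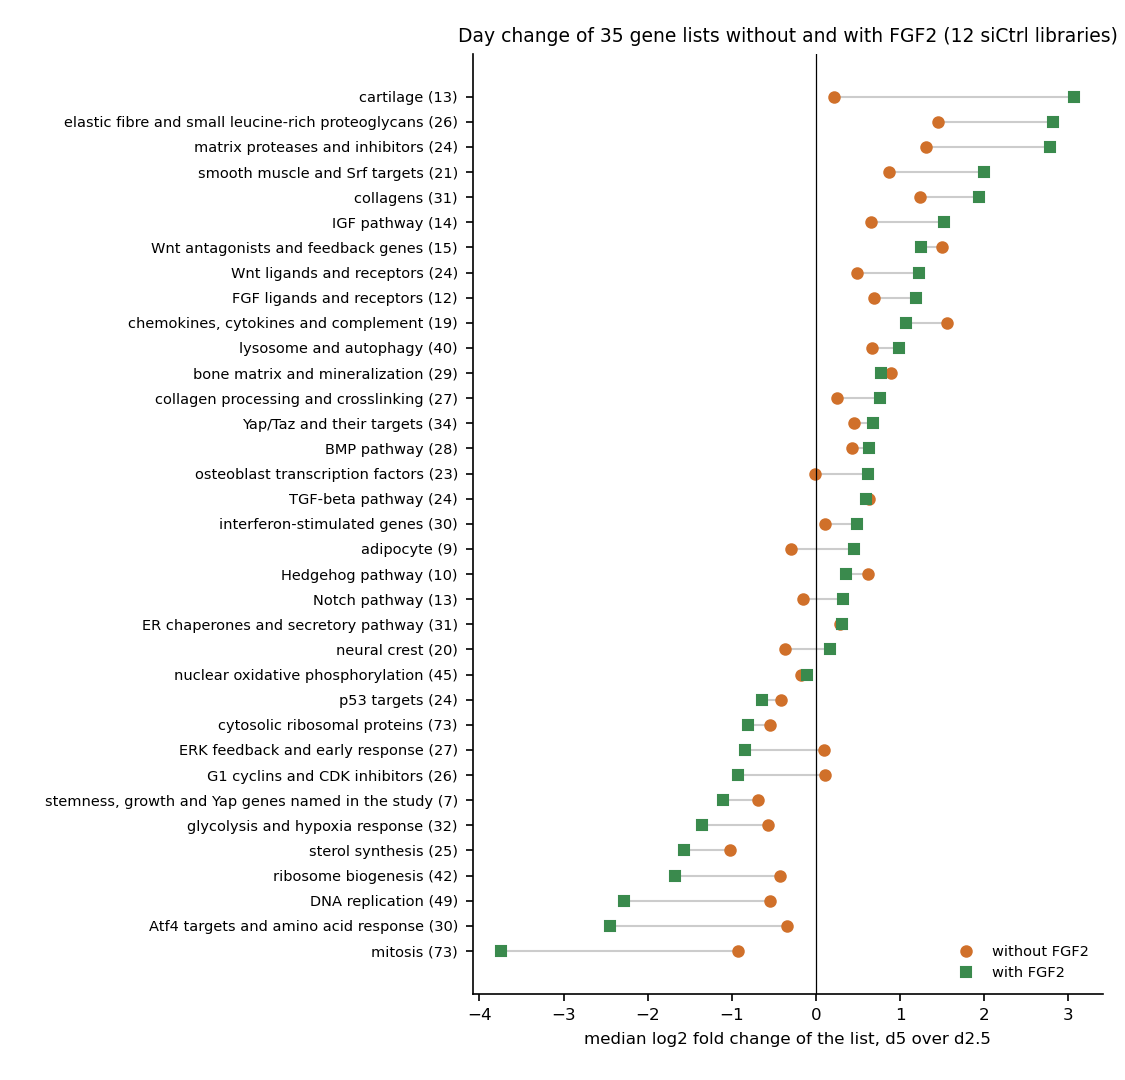
Median log2 fold change (d5 over d2.5) of 35 gene lists without FGF2 (orange circles) and with FGF2 (green squares) in the fit of 12 siCtrl libraries; numbers in brackets are genes tested and grey lines join the pairs. The widest gaps are those of cartilage (0.21 and 3.07), mitosis (−0.93 and −3.74) and Atf4 targets (−0.34 and −2.44).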

How the data were processed

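O9-1 cells were profiled by bulk RNA-seq of poly(A) RNA, and the 6 siCtrl no FGF2 libraries (3 at d2.5, 3 at d5) were compared, with the 6 siCtrl libraries given FGF2 beside them. For each library the authors deposited a file of raw counts, in unstranded, forward and reverse columns, with reads that match no gene or several places set apart. Their processing notes name FastQC, STAR, Picard, featureCounts and mm10, and the annotation release is not given in the sources used here. The reverse-strand counts were used, which held 96.4% to 96.6% of the stranded gene counts. Rows that name no gene held 26.96% to 31.85% of the reads listed and were left out of library sizes. Gene counts of 11026929 to 14698525 per library set the precision, and floors of 3 counts cover counting error only.

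Of 55335 gene identifiers, 55154 matched GENCODE M21 (GRCm38), which gave symbols, coordinates and exon lengths. Counts were filtered with filterByExpr, scaled by TMM and tested two-sided with the quasi-likelihood test of edgeR 4.0.16 in R 4.3.3, with Benjamini-Hochberg adjustment over all genes tested and a threshold of 0.05. The SE is the log2 fold change divided by the root of the F statistic. The day change with FGF2 and the difference of the day changes came from a fit of 12 libraries. The test was also run on simulated counts in which few genes changed, with both directions alike. That run does not bear on the choice of size factors. Alternatives were other size factors, DESeq2 1.42.0, other filters, the unstranded counts, more libraries in the fit, a replicate block and leaving out each library.

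Named genes were those marked for their role, up to 3 in each direction per list with the largest called change (mean log2 CPM of at least 1, replicates not overlapping), the 10 largest rises and falls, the 3 most abundant per kilobase with 2-fold changes in each direction, Yap1, Wwtr1 and the 5 largest differences from the day change with FGF2 in each direction. The gene lists and the comparison were chosen with earlier results of these data known. Promoter windows were RefSeq's on GRCm38.p6. Some genes are not reported here.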

Additional observations from a re-analysis of the deposited data

Results flagged for a closer look

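The results here are differences between the day change (d5 over d2.5, log2) without FGF2 and that with FGF2, each tested as an interaction in the fit of the 12 siCtrl libraries with edgeR's quasi-likelihood test. In all, 8470 genes passed. A negative value means that the day change without FGF2 was the lower.

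Among genes of bone and cartilage the differences were −1.21 for Runx2, −3.1 for Sp7, −8.01 for Alpl, −8.44 for Fmod, −9.0 for Col2a1, −7.91 for Col9a2, −4.42 for Acan and −6.09 for Col10a1. Col10a1 stood at 42, 37.6 and 37 CPM at d2.5 and 5.52, 6.16 and 5.42 CPM at d5 without FGF2, and at 0.853, 0.806 and 0.67 CPM and 6.04, 8.94 and 8.5 CPM with it. Col9a2 stood at 0.142, 0 and 0.134 CPM at d2.5 with FGF2, and Alpl was likewise almost without counts there. The sizes of the differences of Col9a2 and Alpl therefore rest on few counts. Draxin, a secreted guidance protein that can antagonize Wnt signals, gave −8.16, but had no count at d2.5 with FGF2, so that this value depends on the prior count of the fit and is no bound.

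Among signaling genes the differences were −6.29 for Hey1, −3.2 for Smad6, −2.88 for Wnt4, −3.75 for Fgfr2 and −4.79 for Fgfr3. The positive ones were 3.08 for Ccnd1, 2.07 for Klf4, 2.19 for Myc, 3.31 for Dusp6, 2.93 for Hes1, 2.29 for Atf4 and 4.79 for Trib3.

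Among genes whose own day change without FGF2 passed the test and whose log2 CPM averaged 1 or more, the 5 largest positive differences were 5.34 for Galnt3, an enzyme that adds O-linked sugars, 5.18 for Il1rl1, the receptor of IL-33, 4.96 for Il18rap, a subunit of the IL-18 receptor, 4.51 for Stc2 (stanniocalcin), and 4.36 for Lif, a cytokine. Lif stood at 1.31, 0.838 and 1.08 CPM at d2.5 and 3.01, 2.96 and 3.91 CPM at d5 without FGF2, and at 8.18, 8.94 and 8.78 CPM and 1.55, 1.3 and 0.985 CPM with it. Stc2 overlapped between the days without FGF2, at 6.11, 5.93 and 5.69 CPM at d2.5 and 11.1, 5.18 and 9.77 CPM at d5. Its edgeR call there was lost with total-count scaling (adjusted p = 0.214). It was also lost in every fit that left out 1 library except that without d5 replicate 2 (0.0646 to 0.158).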

How the results depend on the processing

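Without FGF2 the 8815 calls became 2056 with a 2-fold minimum (1195 higher, 861 lower). With total gene counts in place of TMM they became 2737 higher and 6855 lower, since every log2 value shifts by about −0.23, and 559 of the called genes changed sign. Among the 339 named genes, these turned negative and passed the test under TMM or under total counts: Serpinh1 (−0.21), Pcna (−0.0097), Lrp5 (−0.22), Fgf10 (−0.18), Csf1 (−0.14), Insig1 (−0.23), Rpl14 (−0.12) and Utp15 (−0.0694). Genes that passed under neither are not listed. The other alternatives kept the count within 1.5 times, from 7691 (DESeq2) to 9421 (18 libraries).

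Leaving out 1 library gave 8194 to 8733 calls (4137 to 4395 higher, 4011 to 4338 lower) and 764 to 799 called list members. With FGF2 it gave 10892 to 11393 (5554 to 5859 higher, 5268 to 5569 lower), and for the difference of the day changes 8098 to 8422.

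The replicate numbers did not pair the samples: same-numbered libraries of the days had correlations of their deviations of −0.0394, −0.0622 and 0.0197, and not every sample correlated best with its own number. A replicate block gave 8456 calls without FGF2, and moved neither the count with FGF2 nor that of the difference (8383) by over 1.5 times. Of the 339 named genes, 331 kept their call under it.

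Day and batch cannot be told apart for any day change. With 3 libraries a group, 1 library decided calls near the threshold. Trib3 and Chac1 passed without d5 replicate 1 (adjusted p = 0.00542 and 0.00374), Vegfa without the same library (0.0262), Tnfrsf11b without d2.5 replicate 2 (0.0375) and Tfap2a without d2.5 replicate 1 (0.0267) or d5 replicate 2 (0.0313) and with the replicate block (0.0324).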
